A study of Mus musculus with 36 samples.

Results

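The striatal transcriptome of C57BL/6J mice given chronic morphine was set against that of C57BL/6J mice given a single dose. The comparison used 6 of the 36 Affymetrix whole-genome mouse arrays of the series: 3 arrays of the chronic group (labelled CHR) and 3 of the acute group (labelled ACU), chosen by strain and treatment from their titles. All mice were adult males of the inbred strain C57BL/6J, 8 to 10 weeks old, and RNA of the striatum was pooled from 3 of them for each array. A group thus holds 9 animals, and every p-value rests on how much such pools varied. Chronic mice were injected subcutaneously 3 times a day for 4 days. Their dose was 10 mg/kg at first, doubled on each of the following days to reach 40 mg/kg on day 3, and stayed there through the single final injection of day 5. Acute mice received saline on the same schedule and their first morphine, 20 mg/kg, on day 5. Tissue was taken 4 h after the last injection in both groups. The groups therefore differed both in morphine history and in the size of the last dose, and these cannot be told apart. Of 45037 probe sets that are not Affymetrix controls, 25933 (57.6%) had an intensity above 99.7 on the linear scale, the detection level, on at least 3 of the 6 arrays and were tested. They included 875 that passed on exactly 3 arrays, and 1120 others passed on exactly 2 and were left out. Among those tested, 21816 carried 1 gene symbol each, for 12860 genes, and a gene is represented here by its brightest detected probe set.

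Morphine acts on the µ-opioid receptor, which lowers cyclic AMP and neuronal firing through inhibitory G proteins. The striatum is built mainly of medium spiny neurons, which receive dopamine from the midbrain and carry this receptor. Morphine also activates the hypothalamic-pituitary-adrenal axis in rodents, and the corticosterone released reaches glucocorticoid receptors in neurons and glia. With repeated dosing, tolerance and withdrawal between doses develop, and activity-dependent genes are among those that respond.

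The 6 arrays had median intensities of 120.4 to 131.3 and 24760 to 25880 probe sets above the detection level. Markers of medium spiny neurons were present in both groups at like levels. Penk, the enkephalin precursor of striatopallidal neurons, had log2 intensities of 12.18, 12.29 and 12.28 in chronic arrays and 12.19, 12.23 and 12.04 in acute arrays. The chronic arrays were less alike than the acute arrays. Across detected probe sets, log2 values of chronic replicates correlated at 0.955 to 0.968 with each other, and those of acute replicates at 0.974 to 0.986, a description over probe sets of the same chips. Chronic replicate 2 lay closest to the acute arrays, at 0.970 to 0.981, and chronic replicate 3 farthest, at 0.944 to 0.955. Choroid plexus transcripts were abundant in chronic replicate 1, with a summed intensity of 7393 over 3 detected markers, against 1557 and 1302 in the other chronic arrays and 1727 to 2140 in acute arrays. Hybridization control transcripts, added by the laboratory to each sample, gave centred log2 scores of 0.26, -0.046 and 0.36 on the chronic arrays and -0.42, 0.058 and -0.44 on the acute arrays. Among the saline arrays used further on, replicate 1 had a 3' minus 5' log2 difference of 0.718 for Gapdh and 1.29 for Actb, which gauges RNA degradation, whereas the 6 arrays compared had at most 0.0564 and 0.497. Without it 38 probe sets were higher and 41 lower, and all 65 calls given next were kept. The parts of these differences between arrays in the results were not tested.

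A total of 65 probe sets differed between chronic and acute morphine, 0.251% of those tested (limma over the 12 groups of the series, Benjamini-Hochberg adjusted p under 0.05). Of these, 28 were higher after chronic morphine (0.108% of those tested) and 37 were lower (0.143%). At an unadjusted p under 0.05 there were 2254 with a positive and 1786 with a negative difference. The chronic and acute arrays of every one of the 65 did not overlap, which held for 10.5% of all probe sets with chronic above acute and 7.24% with chronic below. The calls came from these same arrays, so this separation follows largely from the selection and is no further support. For 6 lower and 1 higher probe set it was certain, since every array of 1 group was above detection and none of the other. In 50 of the 65 all 6 arrays were above the detection level, and their fold differences ran from 1.31 to 1.95 with a median of 1.58. The 7 probe sets with a fitted fold beyond 2 were all below detection on at least 1 chronic array, so their size is uncertain. The 65 belonged to 57 genes, 27 higher and 30 lower. In 35 genes the brightest probe set passed the test, 16 higher (0.124% of 12860 genes) and 19 lower (0.148%). In the other 22 a dimmer probe set passed while the brightest did not, and in 5 of them the brightest had the opposite sign.

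**Figure D1:**
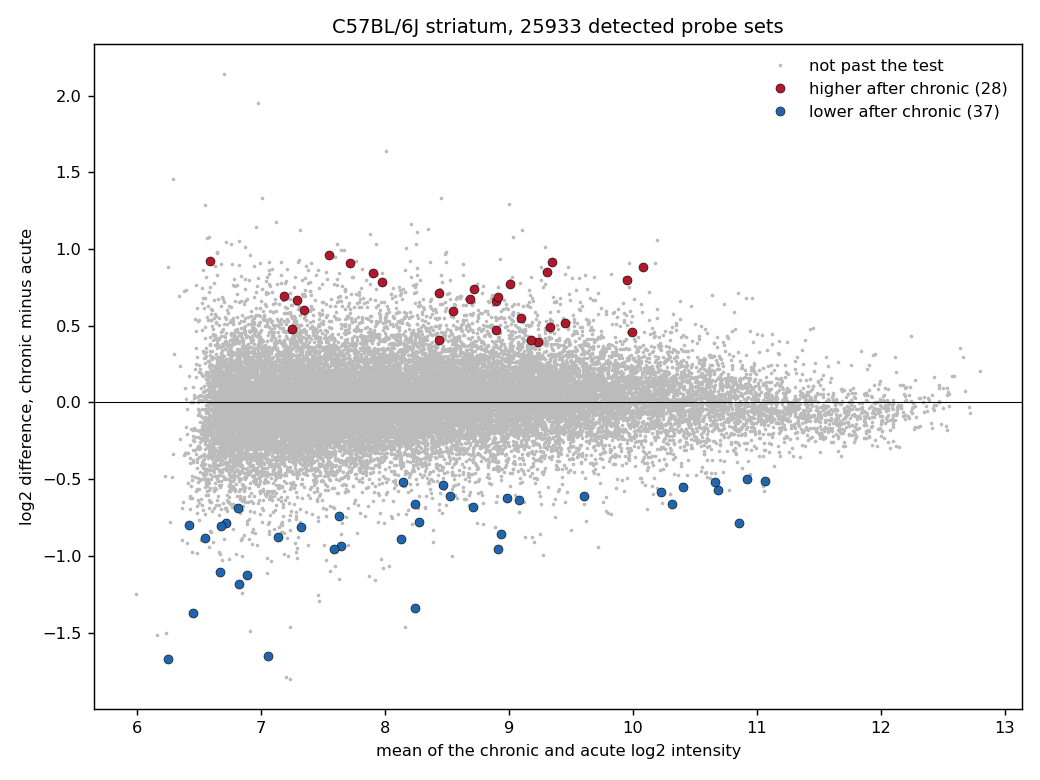
Log2 difference, chronic minus acute, against the mean log2 intensity of both groups for 25933 detected probe sets in C57BL/6J striatum. The 28 higher probe sets (red) all lie under a log2 difference of 1, whereas the 37 lower ones (blue) reach -1.67 at low levels, where chronic arrays were below detection.

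These calls used the spread pooled over all 36 arrays. With only the 9 C57BL/6J arrays limma gave 0 calls, although 1732 had a positive and 1351 a negative difference at an unadjusted p under 0.05. Renewed quantile normalization gave 34 higher and 74 lower, and centring each array on its median gave 28 and 57. The counts also depended on single pools. Without chronic replicate 2 the counts were 388 higher and 511 lower, and all 65 probe sets kept their call. This is the chronic array nearest the acute mean in the 65, and its removal was the only one of the 6 to raise the counts. The counts were 6 higher and 13 lower without chronic replicate 1, and 4 and 7 without chronic replicate 3. They were 4 and 5 without acute replicate 1, 10 and 12 without acute replicate 2, and 0 and 2 without acute replicate 3, where 1243 had a positive difference at an unadjusted p under 0.05. Plat and a dim probe set of Polr3e, which encodes a subunit of RNA polymerase III, passed with any 1 of the 6 arrays left out. The Polr3e probe set was below detection on all chronic arrays and entered the test only through the acute group. So did the brightest probe sets of Nostrin, Apol8, Bnip5 and Fam20a, which are among the genes counted next. That filter favours lower chronic values, so the calls these probe sets kept are no further support. Of the 27 genes named below as past the test by their brightest probe set, 27 kept the call without chronic replicate 2. Among the 27, 9 kept it without chronic replicate 1 (adjusted p of 0.0238 to 0.119), 5 without chronic replicate 3 (0.0399 to 0.341), 3 without acute replicate 1 (0.0222 to 0.154), 9 without acute replicate 2 (0.0212 to 0.123) and 1 without acute replicate 3 (0.0443 to 0.266). Many of the 27 passed in only 1 of these fits, that without chronic replicate 2. They were Ciart, Rgma, Rnd3, Midn, Zfp36l2, Hspb1, Dlx1as, Pdk4, Bnip5, Angptl4, Nostrin, Ccdc141, Fam20a, Sox2, Gja1 and Crot. None of the 27 could change direction in these fits, since their chronic and acute arrays did not overlap.

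**Figure D2:**
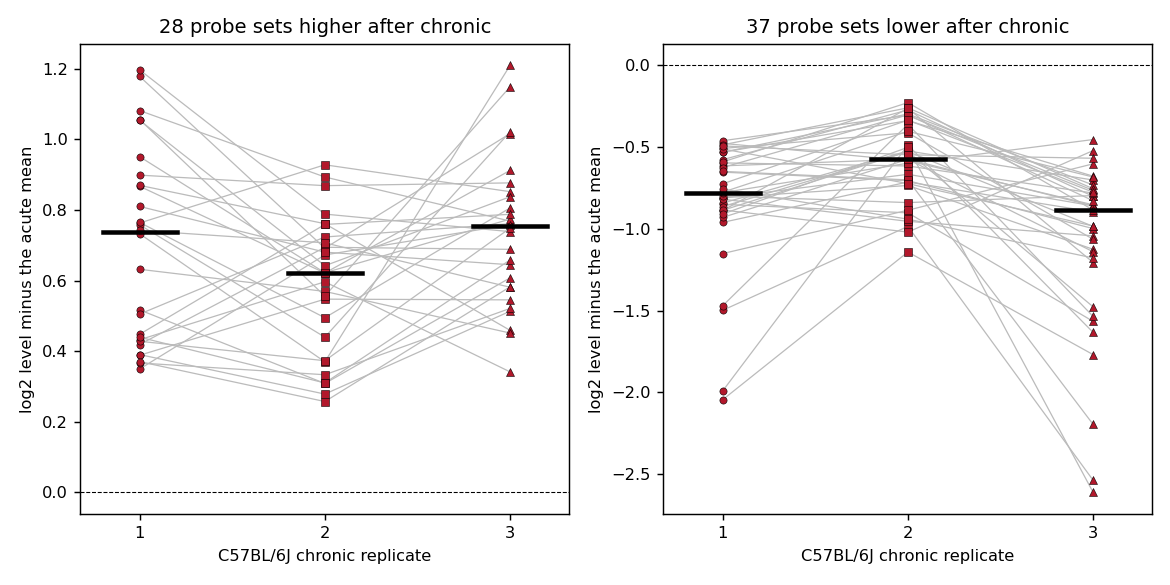
Log2 level on each C57BL/6J chronic array minus the mean of the 3 acute arrays, for the 28 probe sets higher (left) and the 37 lower (right) after chronic morphine. Each line is a probe set and each black bar a median. The medians of chronic replicate 2, 0.62 and -0.57, lie nearer the acute mean than those of replicate 1, 0.74 and -0.78, and replicate 3, 0.75 and -0.88.

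Of 26 detected genes that glucocorticoids induce, 3 were lower after chronic than after acute morphine and none was higher (limma, against 0.148% lower and 0.124% higher over all genes). The 3 were Sgk1, Pdk4 and Angptl4. The median difference of the list was -0.24 log2 units, against -0.0049 over all genes, and 20 of the 26 were negative. Chronic arrays lay wholly below acute arrays in 15 members (7.08% over all genes) and wholly above in 2 (9.71%). The study named several members, among them Sgk1, Fkbp5 and Tsc22d3, from these samples, so their direction is not independent evidence. The intensity summed over the list was 22370 to 23740 in chronic arrays and 25310 to 28020 in acute arrays, without overlap, and 18500 to 19340 in saline arrays. The number that fell was 4 without chronic replicate 2, 1 without chronic replicate 1 or acute replicate 2, and 0 without chronic replicate 3, acute replicate 1 or acute replicate 3. The median of the list stayed between -0.26 and -0.21 in these fits. In bulk tissue, fewer cells of a type and less RNA per cell cannot be told apart.

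Sgk1, the serum- and glucocorticoid-regulated kinase that controls ion channels and transporters, had log2 intensities of 10.60, 10.54 and 10.25 in chronic arrays, against 11.40, 11.13 and 11.22 in acute arrays. The difference was -0.79 ± 0.15 (SE, n = 3 pools each; limma adjusted p = 0.0145). All chronic pools lay below all acute pools and above all saline pools, which had 10.08, 9.86 and 10.23. RefSeq gives Sgk1 6 promoter windows, and 1 of them holds a glucocorticoid response element. It is shown because Sgk1 was the brightest of the 3 genes that fell in this list. The window covers chr10:21993640-21993939 on the plus strand of GRCm38.p6, with 250 bases before the start and 50 after it, and capitals mark the palindrome, AGAACA and TGTTCT with any 3 bases between them.
Sgk1: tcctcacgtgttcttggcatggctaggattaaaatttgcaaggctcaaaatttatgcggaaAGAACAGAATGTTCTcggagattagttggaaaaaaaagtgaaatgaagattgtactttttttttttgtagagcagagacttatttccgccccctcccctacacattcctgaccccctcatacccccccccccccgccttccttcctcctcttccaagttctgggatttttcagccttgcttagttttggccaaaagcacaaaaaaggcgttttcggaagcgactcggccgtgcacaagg
This palindrome, searched on both strands, was in 0.00913% of 32851 RefSeq promoter windows of this length, and in 1 of the 22 list members that had a window. Here and below a gene counted if any of its windows held the motif, so counts of genes and shares of windows are unlike measures. A match describes the letters and is no evidence of binding.

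Pdk4, which phosphorylates and switches off pyruvate dehydrogenase and so spares glucose, had 7.30, 7.16 and 7.07 in chronic arrays and 8.42, 8.07 and 7.86 in acute arrays, a difference of -0.94 ± 0.19 (SE; limma adjusted p = 0.0233). Angptl4, a secreted inhibitor of lipoprotein lipase, had 6.42, 6.69 and 6.97 in chronic arrays and 7.67, 7.47 and 7.58 in acute arrays, a difference of -0.88 ± 0.19 (limma adjusted p = 0.041). The groups did not overlap in either gene, although Angptl4 lay close to the detection level and its adjusted p was 0.0505 when arrays of the same treatment and number were taken as a random block. The other members did not pass the test by their brightest probe set. Cebpd and Nt5e, which the study names, passed by dimmer probe sets chosen after their values were seen. These gave -0.81 and -0.89 (limma adjusted p = 0.0233 and 0.0091), whereas their brightest probe sets gave -0.036 and -0.067 (adjusted p = 0.97 and 0.917). Tsc22d3, the glucocorticoid-induced leucine zipper, differed by -0.47 (adjusted p = 0.13) and Klf15, a Krüppel-like factor, by -0.36 (adjusted p = 0.239), both with chronic arrays wholly below acute arrays. Fkbp5, a co-chaperone that dampens glucocorticoid receptor signaling, differed by -0.19 (adjusted p = 0.319). Zbtb16, a zinc finger repressor, had 9.96, 9.41 and 10.63 in chronic arrays and 9.84, 9.85 and 9.85 in acute arrays, so its chronic pools spread to both sides of the acute ones (difference 0.15, adjusted p = 0.851). The dimmer detected probe sets of Zbtb16 had the opposite sign, -0.37 and -0.14 (limma adjusted p = 0.579 and 0.837). On the positive side of the list stood Per1 at 0.41 (adjusted p = 0.0961) and Dusp1 at 0.37 (adjusted p = 0.246), a clock gene and a MAP kinase phosphatase, both with chronic arrays wholly above acute arrays.

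Against saline, using the same acute and chronic arrays, all 26 members had a positive difference in acute mice, as did 22 in chronic mice, and 9 and 6 of them passed the test as higher (0.187% and 0.591% over all genes). The median of the list was 0.51 log2 units for acute minus saline and 0.18 for chronic minus saline, against -0.033 and -0.024 over all genes. Sgk1 differed from saline by 1.19 after acute morphine and by 0.40 after chronic morphine, and Pdk4 by 1.07 and 0.13. Fkbp5 differed by 0.94 and 0.75. Saline replicate 1, with its high 3' minus 5' values, is 1 of the 3 baseline pools. Without it, all 26 members were again positive in acute mice and 20 in chronic mice, with 4 passing as higher in each (0.101% and 0.14% over all genes), and the medians were 0.49 and 0.17. Pdk4 then differed from saline by 0.92 after acute and -0.022 after chronic morphine.

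**Figure D3:**
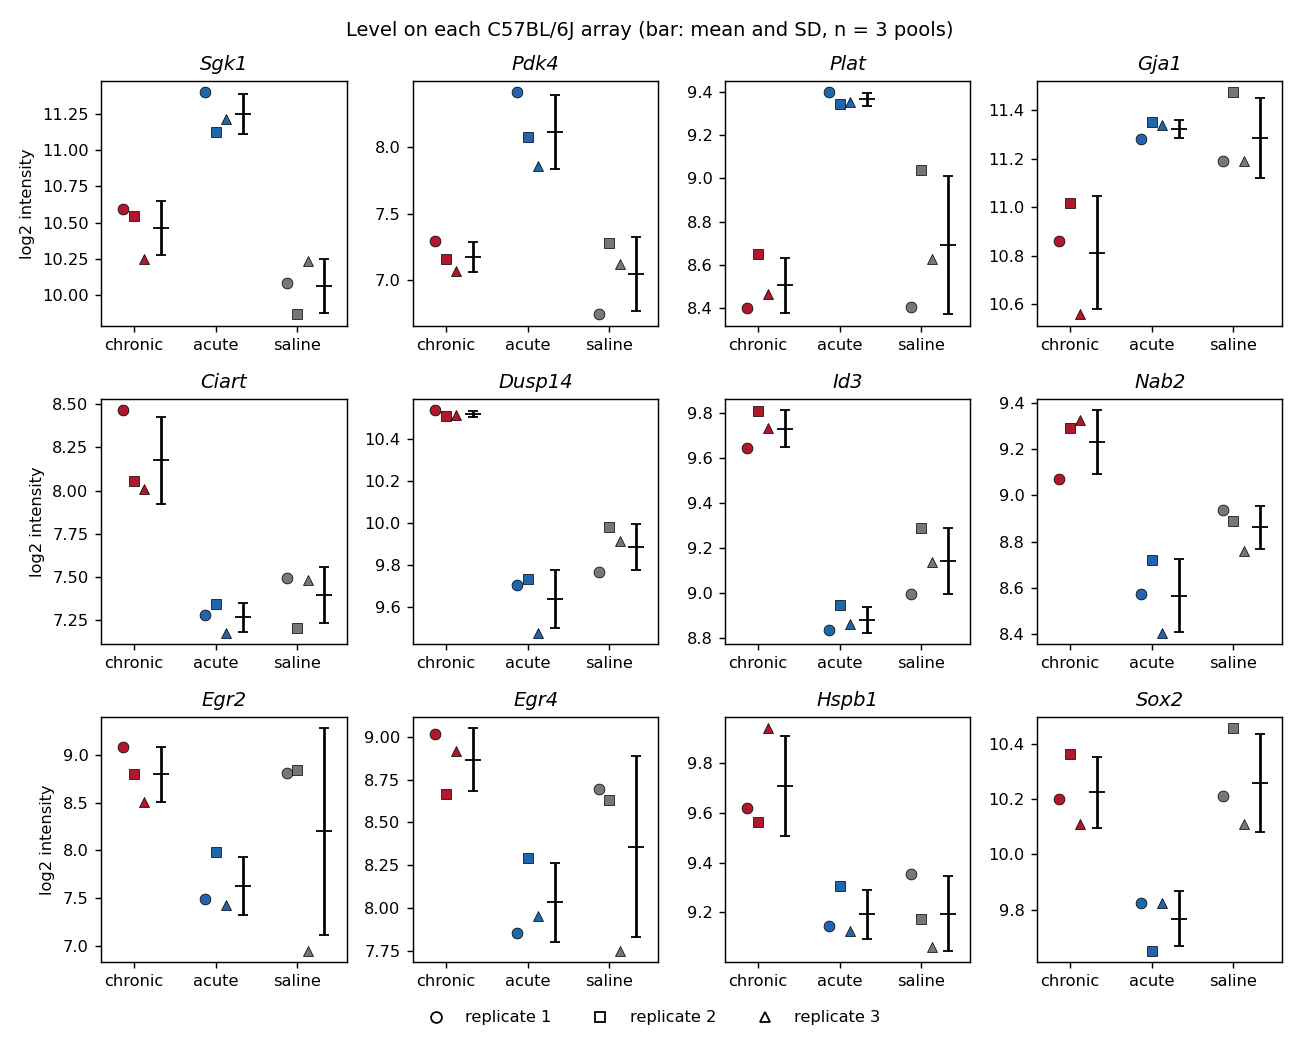
Log2 intensity of 12 genes on each C57BL/6J array by treatment (chronic, acute, saline), with replicates marked by symbol and the mean and SD of 3 pools beside them. Every chronic pool lies below every acute pool for Sgk1, Pdk4, Plat and Gja1 and above for the other 8 genes, of which Egr2 and Egr4 did not pass the test.

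Plat and F3 also fell. Plat encodes tissue plasminogen activator, a protease that turns plasminogen into plasmin and acts at synapses. Its log2 intensities were 8.40, 8.65 and 8.47 in chronic arrays and 9.40, 9.34 and 9.35 in acute arrays, a difference of -0.86 ± 0.13 (SE, limma adjusted p = 0.00289). The dimmer detected probe set of Plat gave only -0.27 (limma adjusted p = 0.447). F3, tissue factor, which starts coagulation and is made by astrocytes in brain, had 7.85, 8.00 and 7.80 in chronic arrays against 8.83, 8.47 and 8.69 in acute arrays, a difference of -0.78 ± 0.15 (limma adjusted p = 0.0166). Neither gene overlapped between the groups, and the acute pools of Plat lay within a narrow band. Nostrin, which controls the trafficking of endothelial nitric oxide synthase, Apol8, of the apolipoprotein L family, Bnip5, of the family of Bcl2-interacting proteins, and Fam20a, which activates a secretory pathway kinase, were above the detection level on all acute arrays and on no chronic array. They entered the test only through the acute group, as 102 probe sets did, and only bounds can be given. The acute mean stood above the detection level by 1.36-fold for Nostrin, 1.13-fold for Apol8, 1.28-fold for Bnip5 and 1.44-fold for Fam20a. These are point estimates without a spread. Their limma adjusted p-values were 0.0427, 0.00474, 0.041 and 0.0229, but a filter passed only through the acute group favours lower chronic values. The endothelial list had a positive median of 0.11 over 12 detected genes, of which none passed the test and 2 had an unadjusted p under 0.05.

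The largest fall past the test by a brightest probe set was that of Dlx1as, a noncoding transcript antisense to the homeobox gene Dlx1, which had 5.15, 6.65 and 5.50 in chronic arrays and 7.22, 6.93 and 7.26 in acute arrays. Its difference was -1.37 ± 0.29 (SE; limma adjusted p = 0.0357). Chronic replicate 2 lay much closer to the acute pools than the other chronic pools did, and only it exceeded the detection level. The probe set of Dlx1 itself differed by -0.35 (adjusted p = 0.568). Ccdc141, a coiled-coil protein known from neuronal migration, had 7.49, 7.28 and 7.02 in chronic arrays against 8.08, 7.77 and 8.16 in acute arrays (difference -0.74 ± 0.16, limma adjusted p = 0.0454). Its dimmer detected probe set gave only -0.041 (adjusted p = 0.939).

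Gja1, connexin 43 of astrocyte gap junctions, was the only one of 17 detected astrocyte genes to fall past the test, and none rose (0.148% and 0.124% over all genes). It had 10.86, 11.02 and 10.56 in chronic arrays and 11.28, 11.35 and 11.34 in acute arrays, a difference of -0.51 ± 0.11 (SE; limma adjusted p = 0.0395), and 4 of its 6 detected probe sets passed with the same sign. Aqp4, the water channel of astrocyte endfeet, had the most negative difference of the list, -0.53, but its groups overlapped (adjusted p = 0.0882), and S100b, a calcium-binding protein, had -0.46 (adjusted p = 0.0857). The astrocyte median was -0.052, close to that of all genes, with 7 members positive, so the low values concerned a few members. Without chronic replicate 2, 4 members of the list were past the test, all lower (2.12% of all genes lower in that fit), among them Aqp4 and S100b. Without any other of the 6 arrays none passed, and adjusted p over the 6 fits was 0.00644 to 0.32 for Gja1, 0.00543 to 0.549 for Aqp4 and 0.018 to 0.531 for S100b. The summed intensity of the list was 25790 to 28200 in chronic arrays and 28640 to 28980 in acute arrays.

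Trp53inp1, a p53-induced protein of stress response and autophagy, was the only one of 15 detected p53-responsive genes past the test (0.148% of all genes lower). It had 8.44, 8.48 and 8.19 in chronic arrays and 9.22, 8.93 and 9.00 in acute arrays, a difference of -0.68 ± 0.12 (SE; limma adjusted p = 0.0117). Cdkn1a, the cyclin-dependent kinase inhibitor p21, had 8.75, 8.36 and 9.10 in chronic arrays and 9.35, 9.33 and 9.17 in acute arrays (difference -0.54, adjusted p = 0.156), with no overlap but a wide chronic spread. The p53 list had a median of -0.11, with 5 members wholly below (7.08% over all genes) and 4 wholly above (9.71%). Crot, the peroxisomal carnitine octanoyltransferase, was the only one of 16 detected genes of fatty acid oxidation and ketone metabolism past the test (0.148% of all genes lower). It had 7.98, 7.96 and 7.80 in chronic arrays and 8.67, 8.54 and 8.54 in acute arrays, a difference of -0.66 ± 0.14 (limma adjusted p = 0.0306), while the list median was -0.032. The dimmer detected probe set of Crot gave only -0.048 (adjusted p = 0.941).

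Among the genes that rose was a member of the circadian clock list. Ciart, a repressor of the CLOCK-BMAL1 activator, was 1 of 15 detected clock genes and the only one past the test by its brightest probe set (0.124% of all genes higher). It had 8.47, 8.06 and 8.01 in chronic arrays and 7.28, 7.35 and 7.18 in acute arrays, a difference of 0.91 ± 0.18 (SE; limma adjusted p = 0.0283). All chronic pools lay above all acute and all saline pools. Ciart was the largest rise of a brightest probe set that passed, so its promoter window is shown. It covers chr3:95882179-95882478 on the minus strand of GRCm38.p6, 250 bases before to 50 after the start, and capitals mark the E-box CACGTG, the palindrome that CLOCK-BMAL1 binds.
Ciart: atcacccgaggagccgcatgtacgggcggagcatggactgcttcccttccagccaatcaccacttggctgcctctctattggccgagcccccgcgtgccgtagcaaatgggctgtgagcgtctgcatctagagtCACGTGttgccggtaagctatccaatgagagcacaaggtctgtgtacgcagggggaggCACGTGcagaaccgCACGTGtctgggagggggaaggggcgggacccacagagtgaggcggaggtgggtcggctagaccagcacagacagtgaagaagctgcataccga
The window holds 3 such E-boxes. The same 6 letters were in 7.15% of all windows and in 4 of the 13 clock genes that had a window, namely Ciart, Cry1, Per1 and Tef. A match is a description of the letters only.

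Of the 15 clock genes, 11 had a positive difference and the list median was 0.22. Chronic arrays lay wholly above acute arrays in 7 (9.71% over all genes) and wholly below in 1. Per2, a negative limb gene, had 9.13, 9.03 and 8.61 in chronic arrays and 8.14, 8.24 and 8.00 in acute arrays (difference 0.80, adjusted p = 0.0915). Arntl, which encodes the activator BMAL1, was the member wholly below, with 8.01, 7.91 and 8.01 in chronic arrays and 8.50, 8.56 and 8.25 in acute arrays (difference -0.46, adjusted p = 0.0969). Dbp and Hlf, output factors of the PAR bZIP family that the clock drives, were singled out after their values were seen. The probe set of Dbp that passed had 9.97, 9.79 and 9.66 in chronic arrays and 8.85, 9.04 and 8.79 in acute arrays, a difference of 0.91 ± 0.16 (SE; limma adjusted p = 0.0105). The one of Hlf had 10.42, 10.17 and 10.46 in chronic arrays and 9.60, 9.61 and 9.44 in acute arrays, a difference of 0.80 ± 0.15 (limma adjusted p = 0.014). Their brightest probe sets gave 0.64 and 0.45 (adjusted p = 0.0961 and 0.0651), the same sign but not past the test. With 1 array left out the brightest probe set of Hlf had an adjusted p of 0.0383 to 0.298 and passed only without chronic replicate 2. The number of clock genes that rose was 2 without chronic replicate 2 and 0 without any other of the 6 arrays, and the median ran from 0.12 to 0.34.

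Dusp14, Nab2, Gab1, Ier3, Midn and Zfp36l2 also rose. Dusp14, a dual-specificity phosphatase that dephosphorylates MAP kinases, had 10.54, 10.51 and 10.52 in chronic arrays and 9.71, 9.73 and 9.48 in acute arrays, a difference of 0.88 ± 0.15 (SE; limma adjusted p = 0.0091). The chronic pools were almost equal and stood well above the acute pools. It was the only one of 16 detected dual-specificity phosphatase genes past the test (0.124% of all genes higher), in a list with a median of 0.15 and 6 members wholly above (9.71% over all genes). Dusp14 lost its call only without acute replicate 3. With 1 array left out, Nab2 and Ier3 kept their call in 3 of the 6 fits. Gab1 kept it in 2, and Midn and Zfp36l2 in 1. Nab2, a corepressor that binds the Egr factors, had 9.07, 9.29 and 9.33 in chronic arrays and 8.57, 8.72 and 8.41 in acute arrays (difference 0.66 ± 0.13, limma adjusted p = 0.019). Gab1, an adaptor that links receptor tyrosine kinases to downstream kinases, had 8.60, 8.92 and 9.01 in chronic arrays and 8.28, 8.29 and 8.18 in acute arrays (difference 0.59 ± 0.12, limma adjusted p = 0.0332). Neither overlapped between the groups. Ier3, an early response gene, had 7.71, 7.60 and 7.30 in chronic arrays and 6.68, 7.09 and 6.75 in acute arrays (difference 0.70 ± 0.13, adjusted p = 0.019). Midn, which encodes midnolin, a factor that sends nuclear proteins to the proteasome, had 9.09, 9.05 and 8.93 in chronic arrays and 8.26, 8.48 and 8.30 in acute arrays (difference 0.68 ± 0.14, adjusted p = 0.0395). Zfp36l2, an RNA-binding protein that destabilizes AU-rich transcripts, had 9.46, 9.39 and 9.27 in chronic arrays against 8.84, 8.78 and 8.84 in acute arrays. Its difference was 0.55 ± 0.12 (limma adjusted p = 0.041, and 0.0505 with the random block). The dimmer detected probe sets of Zfp36l2 gave 0.25 and 0.20 (limma adjusted p = 0.798 and 0.665).

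None of the 20 immediate early genes passed the test in limma, although 8 had an unadjusted p under 0.05, all positive, and 1 of them, Egr4, passed with the random block of treatment and number (adjusted p = 0.0432). The difference was positive in 18 of the 20, with a median of 0.32 against -0.0049 over all genes. Chronic arrays lay wholly above acute arrays in 11 (9.71% over all genes) and wholly below in none. Egr2 and Egr4 are zinc finger transcription factors that neuronal activity induces. Egr2 had 9.08, 8.80 and 8.51 in chronic arrays and 7.49, 7.98 and 7.43 in acute arrays, a difference of 1.16 ± 0.36 (SE; limma adjusted p = 0.129). Egr4 had 9.02, 8.66 and 8.92 in chronic arrays and 7.86, 8.29 and 7.95 in acute arrays, a difference of 0.83 ± 0.19 (limma adjusted p = 0.0502, and 0.0204 to 0.254 with 1 array left out). The groups did not overlap in either gene, but saline pools spread more widely than both, at 8.81, 8.83 and 6.95 for Egr2 and 8.69, 8.63 and 7.75 for Egr4. Nr4a3, an orphan nuclear receptor, differed by 0.77 (adjusted p = 0.0737), Arc, which organizes synaptic receptor trafficking, by 0.68 (adjusted p = 0.115), and Junb, a component of AP-1, by 0.71 (adjusted p = 0.166). Fos, another component of AP-1, differed by 0.40 (adjusted p = 0.5). Without chronic replicate 2, 3 genes of this list, Egr4, Nr4a3 and Junb, were past the test, all higher (1.23% of all genes higher in that fit). Without any other of the 6 arrays none passed, with adjusted p up to 0.409 for Nr4a3 and 0.587 for Junb, and the median ran from 0.25 to 0.38.

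Egr2 had the largest difference of these genes, and a window at its most downstream annotated start is shown for the CArG box, the element through which serum response factor induces early genes. It covers chr10:67537680-67537979 on the plus strand of GRCm38.p6, with capitals on the CArG box.
Egr2: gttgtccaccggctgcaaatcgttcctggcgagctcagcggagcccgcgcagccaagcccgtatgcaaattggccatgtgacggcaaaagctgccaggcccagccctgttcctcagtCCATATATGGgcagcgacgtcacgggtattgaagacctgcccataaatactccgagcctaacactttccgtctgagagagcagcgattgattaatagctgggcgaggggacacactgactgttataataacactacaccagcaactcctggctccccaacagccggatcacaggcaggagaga
A CArG box on either strand was in 1.63% of all windows. Among immediate early genes that had a window, 1 of 15 held it, and that gene, Egr2, held it in 4 of its 5 windows. The palindromic cyclic AMP response element, searched likewise, was in 1.79% of all windows, in none of these 15 genes and in 1 of the 13 clock genes, Hlf.

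Markers of cortical excitatory neurons, a cell type that dissection of the striatum can include, ran in the same direction. Of 11 listed genes 8 were detected, and 7 of these had a positive difference, none past the test (1 had an unadjusted p under 0.05 with a positive and 1 with a negative sign), with a median of 0.22. Neurod6, a transcription factor of cortical pyramidal cells, had 7.50, 7.92 and 8.15 in chronic arrays and 6.50, 7.09 and 7.26 in acute arrays (difference 0.91 ± 0.50, adjusted p = 0.386). The summed intensity of the list was 3975 to 5466 in chronic arrays and 3930 to 4884 in acute arrays, so the groups overlapped, with no detected marker at 0. The part of cortical tissue in the immediate early values was not tested.

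Id3, Rgma, Rnd3 and Cdc42ep2 also rose, and Hes5 did by a dimmer probe set. Id3, an inhibitor of basic helix-loop-helix factors, had 9.64, 9.81 and 9.73 in chronic arrays and 8.84, 8.95 and 8.86 in acute arrays, a difference of 0.85 ± 0.14 (SE; limma adjusted p = 0.0091). Hes5, a Notch target chosen after its values were seen, had by that probe set 8.54, 8.13 and 8.32 in chronic arrays and 7.30, 7.53 and 7.62 in acute arrays (difference 0.84 ± 0.15, limma adjusted p = 0.014). Its brightest probe set gave 0.53 (adjusted p = 0.141). In all of these the chronic pools were above the acute pools. Rgma, a membrane-bound axon guidance molecule, had 9.35, 8.99 and 9.83 in chronic arrays and 8.66, 8.62 and 8.58 in acute arrays, with far more spread among chronic pools (difference 0.77 ± 0.16, adjusted p = 0.0395). Rnd3, which acts on the actin cytoskeleton, had 8.89, 8.76 and 8.72 in chronic arrays and 8.19, 7.95 and 8.09 in acute arrays (difference 0.71 ± 0.16, adjusted p = 0.0451). The dimmer detected probe set of Rnd3 gave 0.21 (limma adjusted p = 0.683). Cdc42ep2, an effector of Cdc42 in the actin cytoskeleton, had 7.47, 7.75 and 7.74 in chronic arrays and 7.03, 7.01 and 7.11 in acute arrays (difference 0.60 ± 0.12, adjusted p = 0.019). Neither Rnd3 nor Cdc42ep2 overlapped between the groups.

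Hspb1, the small heat shock protein Hsp27, was the only one of 21 detected heat shock genes past the test (0.124% of all genes higher), and kept its call only without chronic replicate 2 among the 6 fits with 1 array left out. It had 9.62, 9.56 and 9.94 in chronic arrays and 9.14, 9.31 and 9.12 in acute arrays, a difference of 0.52 ± 0.11 (SE; limma adjusted p = 0.0427), and its second probe set also passed. With the random block the adjusted p was 0.0505 for the brightest probe set and 0.0544 for the other. Hspa1a, an inducible Hsp70 gene, had 8.38, 8.28 and 8.53 in chronic arrays and 7.54, 7.97 and 7.63 in acute arrays (difference 0.68 ± 0.18, adjusted p = 0.0815, and 0.0377 to 0.424 with 1 array left out). Its near-identical copy Hspa1b differed by 0.52 (adjusted p = 0.141), and probes can read both. The list median was 0.075, with 13 members positive and 8 negative, and the constitutive chaperones Hspa8 and Hsp90aa1 differed by -0.05 and -0.13 (adjusted p = 0.841 and 0.434).

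Opioid peptide and receptor genes had differences near 0. Of 7 detected opioid peptide and receptor genes none passed the test, none had an unadjusted p under 0.05, and their differences ran from -0.11 to 0.098 with a median of -0.0067. Nor did any of 19 medium spiny neuron genes pass (1 with an unadjusted p under 0.05 in each direction), among which Foxp1, a transcription factor of these neurons, had the largest difference, 0.46 (adjusted p = 0.0848, and 0.0331 to 0.436 with 1 array left out). Another 21 lists, among them opioid receptor signaling, receptor, glial, vascular, metabolic, mitochondrial, histone and cytoskeletal genes, held 286 detected genes. None of these passed in limma by its brightest probe set, and 24 had a positive and 19 a negative difference at an unadjusted p under 0.05. Over all 12860 genes, 1071 and 906 did so. Their medians ran from -0.18 for 9 nuclear noncoding RNAs to 0.27 for 3 choroid plexus genes. The 32 detected genes of opioid receptor signaling ran from -0.18 to 0.48 with a median of 0.027, and 2 had an unadjusted p under 0.05, both positive.

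**Figure D4:**
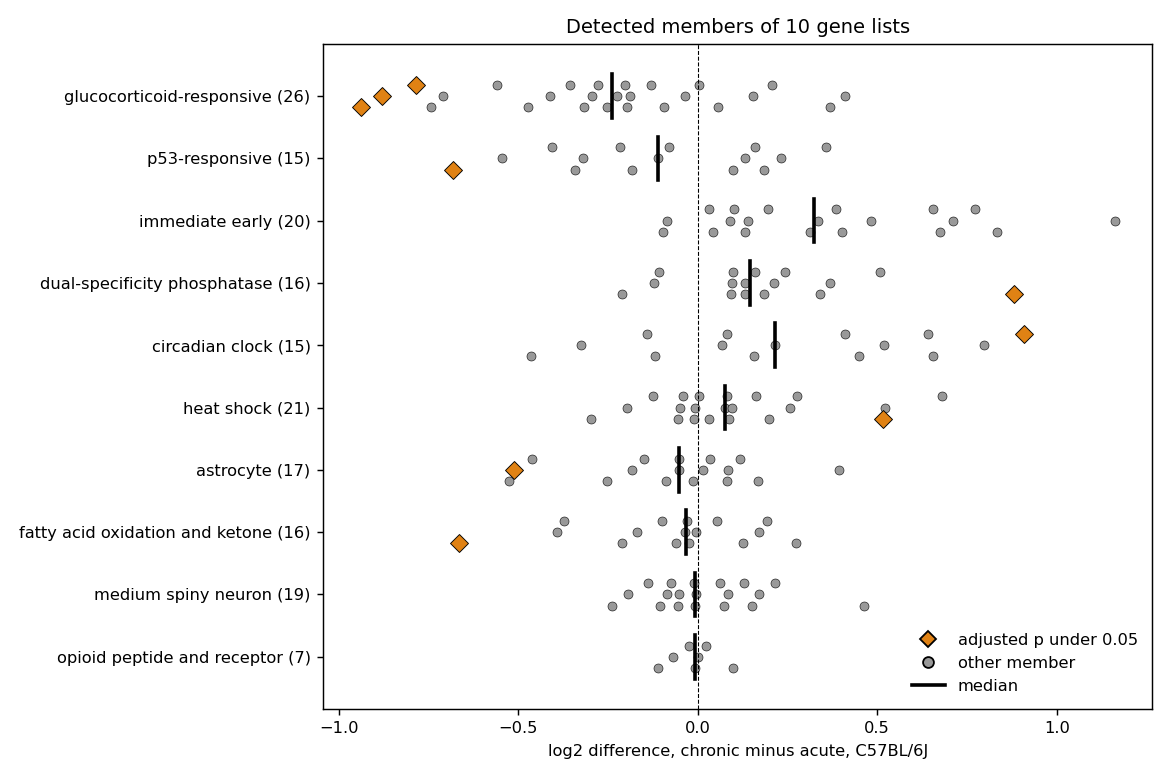
Log2 difference, chronic minus acute in C57BL/6J, of the detected members of 10 gene lists, with the number detected in parentheses. Diamonds passed the test (adjusted p under 0.05) and black bars are medians, which run from -0.24 for glucocorticoid-responsive genes to 0.32 for immediate early genes.

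The level in saline pools of the same strain was set beside both morphine groups, although these differences share arrays with the comparison itself and saline replicate 1 had high 3' minus 5' values. Of the 28 higher probe sets, saline means lay between the groups and nearer the acute mean in 22, and between and nearer the chronic mean in 2, while 3 were above both groups and 1 was below both. Of the 37 lower ones, saline lay between and nearer the acute mean in 21, between and nearer the chronic mean in 8, below both in 6 and above both in 2. Sgk1 was among those with saline below both groups. Against saline, 28 of the 65 passed the test after chronic morphine and 13 after acute morphine, where 1.96% and 0.32% of all probe sets did. Without saline replicate 1 these were 6 and 8 of the 65 (0.308% and 0.158% of all probe sets). Saline then lay between and nearer the acute mean in 22 of the higher and 17 of the lower probe sets.

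The 65 probe sets were then compared across the other strains of the series, 129P3/J, DBA/2J and SWR/J, treated alike. The chronic minus acute difference had the sign seen in C57BL/6J in 58 of the 65 for 129P3/J, 48 for DBA/2J and 54 for SWR/J, where 63.1%, 60.0% and 62.9% of all probe sets did so. Arrays of the same treatment and number deviated together across strains (consensus correlation 0.244), so the strains are not independent. In DBA/2J, F3, Fam20a and Crot also passed, at -0.61, -0.58 and -0.73 (limma adjusted p = 0.0412, 0.0395 and 0.021), against 1.01% of probe sets lower and 0.312% higher there. Aff1, a subunit of the super elongation complex, and a dimmer probe set of Sesn1, a stress-induced inhibitor of mTORC1, both chosen after their values were seen, were the others of the 65 that passed in DBA/2J. All 5 were lower in both strains.

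Sox2, a transcription factor of neural progenitors and glia, was the 1 probe set (0.00386% of those tested) whose difference in C57BL/6J departed from the mean of the other strains. It had 10.20, 10.36 and 10.11 in chronic arrays and 9.83, 9.65 and 9.82 in acute arrays, a difference of 0.46 ± 0.10 (SE; limma adjusted p = 0.0336). The groups did not overlap, and saline pools, at 10.21, 10.46 and 10.11, lay near the chronic ones. In 129P3/J, DBA/2J and SWR/J the difference was -0.22, -0.18 and -0.27, none past the test. The departure was 0.68 ± 0.11 log2 units (limma adjusted p = 0.0273). With 1 of the 6 arrays left out it was 0.61 to 0.74 and passed only without chronic replicate 3, with an adjusted p of 0.0523 to 0.0826 in the other 5 fits. The next in order, among them Rnd3, Hspa1a and P4ha1, a collagen-modifying hydroxylase, had an adjusted p of 0.0687. With the random block, 81 probe sets departed. Glucocorticoid-responsive genes had medians of -0.085 for 129P3/J, -0.16 for DBA/2J and -0.16 for SWR/J, the same sign as in C57BL/6J, whereas immediate early genes had 0.16, -0.046 and -0.039. Cortical excitatory neuron genes had 0.44, 0.33 and 0.29 in the same order, against 0.22 in C57BL/6J. These list medians were not tested for a difference between strains.

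**Figure D5:**
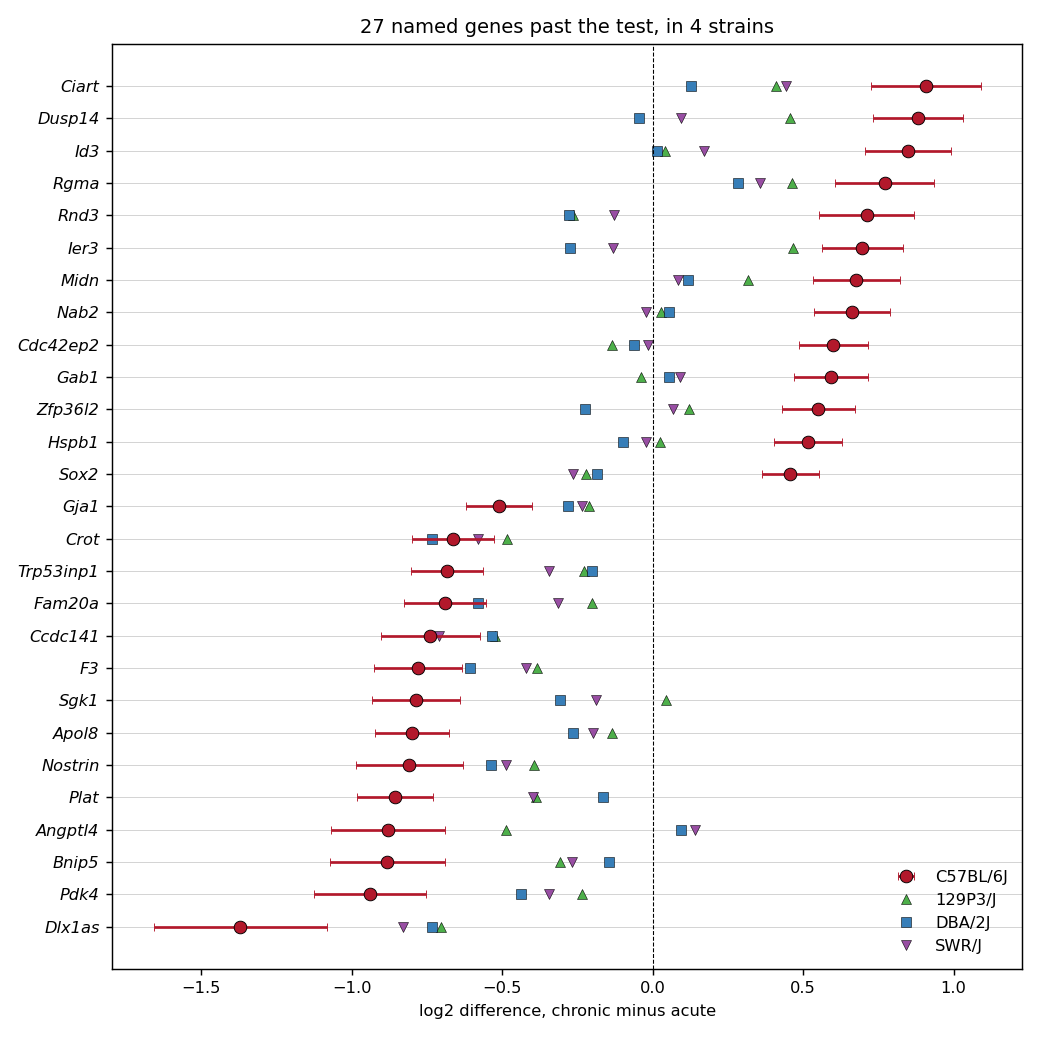
Log2 difference, chronic minus acute, of the 27 named genes past the test in C57BL/6J (circles with SE) and of the same genes in 129P3/J, DBA/2J and SWR/J. Sox2 at 0.46 in C57BL/6J lies right of 0 while the other strains lie between -0.18 and -0.27.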

How the data were processed

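RNA of 3 pooled mice per array was hybridized by the authors to Affymetrix whole-genome mouse arrays. The deposited table gives a linear signal intensity for 45101 probe sets on 36 arrays. The authors' methods name 3 algorithms, and the values (linear, with a floor of 6.69) match the dChip model-based index from perfect match and mismatch probes, which was quantile normalized, so differences of dim probe sets are less certain. The number of arrays limits the precision. Log2 of the intensity was taken. Limma 3.58.1 (R 4.3.3, statmod 1.5.0) fitted 12 group means over the 36 arrays, with 24 residual degrees of freedom, and p-values were adjusted by the Benjamini-Hochberg method over 25933 probe sets. The fitting was checked before use on simulated arrays with independent noise. That check could not show how deviations shared between arrays or single outlying pools affect the counts. Probe sets were named through the platform annotation and RefSeq symbols, and 568 with several genes and 3549 with none were left unnamed.

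The members and the 32 gene lists were chosen with earlier results of these data known. Genes were to be named by rule: by brightest probe set, the 12 largest differences in each direction among those past the test with groups apart (filled by smallest p where fewer passed), the 6 of smallest p for the departure from the other strains, from each list at most 4 that passed (or the 2 of largest difference where none did), and genes the study names. Of the 105 so named, those on which a result turned are described. Other list members, Dlx1, Dbp, Hlf, Hes5, Sesn1, Aff1, Polr3e and dimmer probe sets of Cebpd and Nt5e were added after their values were seen. Promoter windows come from RefSeq (GRCm38.p6), searched for 4 motifs. Alternatives varied the filter, pseudocount, normalization, arrays in the fit, block, moderation, weights, threshold and probe set choice, and left out each array. Tables and figures used Python 3.11.15, pandas 2.3.3, numpy 2.4.6 and matplotlib 3.10.9.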

Additional observations from a re-analysis of the deposited data

Results flagged for a closer look

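Sox2 was singled out because its chronic minus acute difference in C57BL/6J departed from the mean of 129P3/J, DBA/2J and SWR/J by 0.68 log2 units in limma's test of the difference itself (adjusted p = 0.0273). The difference was positive in C57BL/6J, where no chronic pool overlapped an acute pool, and negative in each of the other strains. With 1 array left out the departure was 0.61 to 0.74, and it passed only without chronic replicate 3 (adjusted p = 0.0274 there and 0.0523 to 0.0826 otherwise).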

How the results depend on the processing

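The direction held for 58 of 59 differences named in the text in every alternative. The exception was Zbtb16, which had 0.15 and gave -0.12 with the mean of all its probe sets and -0.16 to 0.45 with 1 array left out. Much of this was fixed in advance. Filters, blocks, moderation and the removal of other groups do not alter a difference of group means. Genes whose groups do not overlap also keep their sign with 1 array left out. Counts of probe sets higher and lower moved more, from 28 and 37, with the departures from other strains at 1. They were 13, 24 and 2 departures without a filter on low values, and 60 higher with 19 departures with a log2 minimum of 8. Renewed quantile normalization gave 74 lower and median centring 57 lower. Only the 9 C57BL/6J arrays gave 0 and 0, and only the 6 arrays 0 and 1 (at an unadjusted p under 0.05, 2032 and 1476). Deviations of same-numbered chronic and acute arrays correlated at 0.0417, -0.142 and 0.0114, so the numbers were not taken as pairs; with a replicate block the counts were 206, 129 and 15 over 36 arrays, and 504 and 367 over the 6 arrays. A random block of treatment and number gave 60, 56 and 81, and a fixed one, chosen after seeing the data, 35 departures. Moderation with trend and robust gave 48 higher and 7 departures, and array weights 610, 446 and 324. At an adjusted p under 0.01 there were 2, 6 and 0, and under 0.1 there were 195, 169 and 22. With 1 array left out in turn the range was 0 to 388 higher, 2 to 511 lower and 0 to 4 departures. Leaving out saline replicate 1, chosen after seeing the data, gave 38, 41 and 1. The cause of these moves was not tested. Low signal limits dim probe sets, since 6 of the 65 lay below detection on all chronic arrays and 1, a higher one, on all acute arrays.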
